A study of Homo sapiens with 8 samples.

Results

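A set of 10 early response genes was followed in Jurkat T-ALL cells: the EGR factors EGR1, EGR2 and EGR3, the AP-1 subunits FOS, FOSB, JUN and JUNB, the regulators IER2 and NR4A1, and the surface protein CD69. They were taken by gene symbol from a table of counts for 63677 genes, and all 10 were found there, 1 row each. Of these, 7 had enough counts to be tested among 15646 genes; EGR2, EGR3 and FOS did not. The cells were Jurkat, an established line from a human T cell acute lymphoblastic leukaemia, carrying TAL1-FKBP12, a fusion of the transcription factor TAL1 with a tag that dTAG-13 marks for degradation. There were 4 groups of 2 libraries, each harvested after 24 hours: dTAG-13, GSI, dTAG-13 together with GSI (called the combination), and DMSO, the solvent control. GSI stands for a gamma-secretase inhibitor, a drug that stops the release of the active part of NOTCH receptors. All groups, controls included, carried the tagged TAL1, so untagged Jurkat cells were not analysed here, and neither were other lines. The labels give no doses, nor the source of each replicate (separate cultures or 1), so p-values measure the spread between these libraries, which may be technical.

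Immediate early genes are transcribed within minutes of a stimulus, without new protein synthesis, and their RNAs are short-lived. In T cells the antigen receptor, through RAS, ERK and calcium signals, acts on SRF, its TCF partners and CREB at their promoters, and the EGR and AP-1 factors made then act on later genes. CD69 is among the first proteins to appear on an activated T cell, where it holds the egress receptor S1PR1 inside the cell. The libraries here were taken long after such a burst, and the labels name no stimulus, so the values describe levels in growing cells.

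Total counts ran from 17544319 to 22180009 per library, with 7.80% to 8.81% mitochondrial. Levels are in CPM, counts scaled to library size, adjusted with TMM, a normalization for RNA composition, and differences are log2 fold changes with standard errors (SE) from a quasi-likelihood test in edgeR, called at an adjusted p under 0.05 over all genes tested. The NOTCH targets DTX1, HES1, HES4, NOTCH3 and MYC were lower in all comparisons of a group with GSI against one without (5 of 5, median log2 fold change -2.16 for GSI against DMSO). The TAL1 targets PLCH1, ALDH1A2 and CD40LG were lower with dTAG-13 than with DMSO, each call being lost without any 1 of the 4 libraries. These 3 were the only genes called in that comparison. Their list was chosen with earlier results of these data known, so they are no independent check of dTAG-13. With dTAG-13 averaged over the backgrounds with and without GSI, all 3 were called lower. No fit without 1 of the 8 libraries ended these averaged calls. The RNA of TAL1 itself does not check a drug that acts on the protein. Of 15 T lineage markers 14 were tested, with a sum of 3578 to 4146 CPM per library, and TRBC1 was at 0. Of 12 myeloid markers none was tested, and their sum reached at most 0.751 CPM. In bulk RNA, fewer cells expressing a gene and less RNA per cell cannot be told apart.

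Per kilobase of exon, the mean levels over all 8 libraries differed widely between the members. JUNB stood at 19.2 CPM per kilobase, IER2 at 11.8 and JUN at 4.96. CD69 followed at 1.59, NR4A1 at 0.874, EGR1 at 0.460 and FOSB at 0.169, and FOS, EGR2 and EGR3 were lowest at 0.0630, 0.0476 and 0.0343. In level per kilobase, JUNB and IER2 thus stood far above the EGR and FOS genes. By CPM, IER2 was at the 62.4th percentile of the genes tested and EGR1 at the 19.8th.

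**Figure D1:**
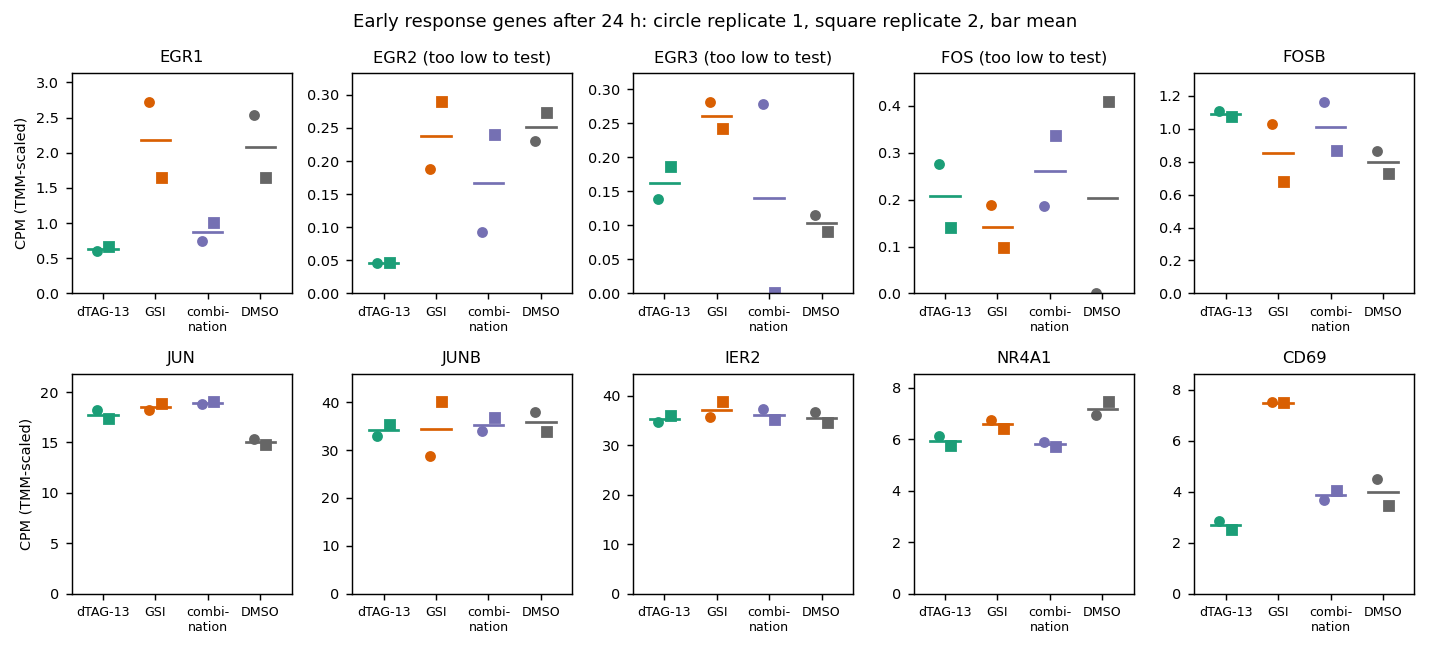
Level of each of the 10 genes in every library, in TMM-scaled CPM on a linear axis that starts at 0 and differs between panels; circles are replicate 1, squares replicate 2 and bars the mean of both. EGR1 lies at or below 1.01 CPM in the dTAG-13 and combination libraries and at or above 1.63 CPM in the GSI and DMSO libraries, and CD69 is highest in the 2 GSI libraries.

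EGR1 (ENSG00000120738), a zinc finger activator that ERK signalling induces, was lower with dTAG-13 when the backgrounds with and without GSI were averaged, at a fold of 0.351. It was measured at 0.599 and 0.653 CPM with dTAG-13, 2.72 and 1.64 CPM with GSI, 0.745 and 1.01 CPM with the combination, and 2.54 and 1.63 CPM with DMSO. All 4 libraries with dTAG-13 were below all 4 without it, and the GSI and DMSO libraries overlapped. The values rest on 13 to 58 reads per library, with 27 reads in the 2 dTAG-13 libraries (95% Poisson interval 17.8 to 39.3, counting error only) and 80 in the 2 DMSO libraries (63.4 to 99.6).

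Averaged over both backgrounds, EGR1 was lower with dTAG-13 by a log2 fold change of -1.51 (SE 0.26, edgeR adjusted p = 0.0267). It was 1 of 2 members called in that comparison, both lower, where 0.499% of all genes tested were called and 0.422% were called lower. The call was lost without any one of 6 libraries, namely either dTAG-13 or DMSO replicate, GSI replicate 1 or combination replicate 1 (adjusted p 0.0681 to 0.168), and log2 fold changes stayed between -1.67 and -1.30 in all 8 such fits. Without GSI replicate 2 or combination replicate 2 the adjusted p was 0.0139 and 0.0378, and the Wald test of DESeq2 on all 8 libraries gave 0.00255.

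In the pairwise tests, EGR1 had a log2 fold change of -1.71 for dTAG-13 against DMSO (SE 0.38, edgeR adjusted p = 0.278) and of -1.32 for the combination against GSI (SE 0.35, edgeR adjusted p = 0.516). These comparisons share no library. For the combination against DMSO the value was -1.23 (SE 0.36, edgeR adjusted p = 0.148). With no filter on low counts, the same test gave EGR1 an adjusted p of 0.00348 for dTAG-13 against DMSO and of 0.0274 for the combination against DMSO, and a fit of the dTAG-13 and DMSO libraries alone gave 0.0199. In the authors' deposited table for dTAG-13 against DMSO, EGR1 had a log2 fold change of -1.73 with a p of 0.00269 and no adjusted p.

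No effect of GSI on EGR1 passed the test. The log2 fold change was 0.09 for GSI against DMSO (SE 0.31, edgeR adjusted p = 0.943), and its sign turned without GSI replicate 1 (-0.33) or DMSO replicate 2 (-0.22). For the combination against dTAG-13 it was 0.48 (SE 0.43, edgeR adjusted p = 0.689). The interaction, by which the joint effect differs from both single effects added on the log2 scale, was 0.39 for EGR1 (SE 0.53, unadjusted p = 0.477, edgeR quasi-likelihood test).

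EGR2 and EGR3, which in T cells are known for restraining activation, had 0 to 6 reads per library, too few for the main tests. EGR2 was measured at 0.0461 and 0.0466 CPM with dTAG-13, 0.188 and 0.289 CPM with GSI, 0.0931 and 0.240 CPM with the combination, and 0.231 and 0.272 CPM with DMSO. That is 2 reads in the dTAG-13 libraries together (95% Poisson interval 0.242 to 7.22), 10 in the GSI libraries, 7 in the combination libraries and 10 in the DMSO libraries (4.80 to 18.4). The counting intervals of dTAG-13 and DMSO overlap, which does not show equal levels. With no filter on low counts, EGR2 had a log2 fold change of -2.305 for dTAG-13 against DMSO and was not called (SE 1.16, unadjusted p = 0.0460, edgeR quasi-likelihood test). That of EGR3 was 0.64 (SE 1.10). EGR3 was measured at 0.138 and 0.186 CPM with dTAG-13, 0.282 and 0.241 CPM with GSI, 0.279 and 0 CPM with the combination, and 0.116 and 0.0908 CPM with DMSO. The combination library at 0 allows up to 0.144 CPM (3 counts), and no order of the 4 groups can be read from 4 to 11 reads each.

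The promoter of EGR1 is shown because EGR1 was the transcription factor among the members called for dTAG-13 averaged over both backgrounds. That call was lost without any one of 6 libraries. The promoter of JUN is shown for comparison. RefSeq sequences of GRCh38.p14 matched 8 of the 10 genes, all but EGR3 and CD69. The 250 bases before the transcription start are given, 5′ to 3′ on the coding strand, with capitals for matches on either strand to the CArG box (the SRF motif), the CREB core TGACG, the E-box CANNTG (the class of motif that TAL1 dimers bind), the GATA motif AGATAA, the motif TGGGAA of RBPJ (the DNA-binding partner of NOTCH) and the EGR motif GCGNGGGCG.
EGR1, chr5:138465229-138465478, plus strand: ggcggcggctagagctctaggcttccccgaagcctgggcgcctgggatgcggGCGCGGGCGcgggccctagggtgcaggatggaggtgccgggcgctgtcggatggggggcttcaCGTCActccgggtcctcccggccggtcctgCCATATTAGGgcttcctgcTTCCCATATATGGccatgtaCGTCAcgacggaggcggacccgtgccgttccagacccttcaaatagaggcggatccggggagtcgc
JUN, chr1:58784048-58784297, minus strand: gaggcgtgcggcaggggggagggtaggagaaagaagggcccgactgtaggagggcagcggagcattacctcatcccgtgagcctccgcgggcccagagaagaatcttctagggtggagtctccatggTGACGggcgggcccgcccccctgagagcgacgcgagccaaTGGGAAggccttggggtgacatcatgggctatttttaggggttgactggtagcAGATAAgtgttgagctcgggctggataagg

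Counting back from the start as base -1, the EGR1 promoter held 2 CArG boxes starting at -105 and -83, 2 CREB cores at -135 and -66, an EGR match at -198, and an RBPJ match at -86 that overlaps the second CArG box. It held no E-box and no GATA match. JUN had a CREB core at -123, an RBPJ match at -83 and a GATA match at -30, and no CArG box. Over 35116 promoters of 300 bases, which run 50 bases past the start, 1.29% held a CArG box, 24.6% a CREB core, 68.7% an E-box, 10.3% AGATAA, 24% TGGGAA and 9.43% the EGR motif. Among the other members, FOS had 2 E-boxes of the letters CAGATG or its complement, starting at 6 and 19 after the start, letters held by 14.7% of promoters. E-boxes of other letters lay in the promoters of EGR2, FOSB and IER2, and 1 of the 3 EGR2 promoters held a CArG box. These matches are letters in a window and no binding was measured here.

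Among the AP-1 subunits none passed the test in any comparison. JUN (ENSG00000177606), which pairs with FOS proteins or with itself, was measured at 18.2 and 17.3 CPM with dTAG-13, 18.2 and 18.9 CPM with GSI, 18.8 and 19.0 CPM with the combination, and 15.3 and 14.7 CPM with DMSO. Each treated group lay above both DMSO libraries, and the 3 treatments lay close together. The log2 fold change against DMSO was 0.24 for dTAG-13 (SE 0.10, edgeR adjusted p = 0.9996), 0.31 for GSI (SE 0.10, edgeR adjusted p = 0.197) and 0.33 for the combination (SE 0.10, edgeR adjusted p = 0.186). These 3 values share the DMSO libraries. Libraries of the 2 groups did not overlap, with the treated group higher, for 17.7% of all genes tested with dTAG-13, 22.6% with GSI and 21.6% with the combination, and with the treated group lower for 17.6%, 20.9% and 20.5%.

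JUNB, a JUN relative that is weaker as an activator, was measured at 33.0 and 35.2 CPM with dTAG-13, 28.7 and 40.0 CPM with GSI, 34.0 and 36.7 CPM with the combination, and 37.9 and 33.8 CPM with DMSO. The GSI replicates spanned the values of the other 6 libraries. Its log2 fold changes against DMSO were -0.07 for dTAG-13, -0.06 for GSI and -0.02 for the combination, each with an SE of 0.14.

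The FOS genes, whose products cannot bind DNA without a JUN partner, were low. FOSB had 1.11 and 1.07 CPM with dTAG-13, 1.03 and 0.675 CPM with GSI, 1.16 and 0.863 CPM with the combination, and 0.866 and 0.726 CPM with DMSO. The dTAG-13 libraries lay above both DMSO libraries, and the other groups overlapped DMSO. The log2 fold change of FOSB for dTAG-13 against DMSO was 0.46 (SE 0.36, edgeR adjusted p = 0.9996). FOS was measured at 0.276 and 0.140 CPM with dTAG-13, 0.188 and 0.0965 CPM with GSI, 0.186 and 0.336 CPM with the combination, and 0 and 0.409 CPM with DMSO. FOS differed as much between the DMSO replicates, 0 and 9 reads, as between any groups, and the library at 0 allows up to 0.173 CPM.

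IER2, a small nuclear protein induced with the AP-1 genes, passed the test in no comparison. It was measured at 34.8 and 35.9 CPM with dTAG-13, 35.7 and 38.7 CPM with GSI, 37.3 and 35.1 CPM with the combination, and 36.7 and 34.5 CPM with DMSO. Every group overlapped DMSO. Its log2 fold changes against DMSO were -0.01 for dTAG-13, 0.06 for GSI and 0.03 for the combination, each with an SE of 0.09.

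NR4A1, an orphan nuclear receptor used as a readout of T cell receptor signal strength, was measured at 6.13 and 5.73 CPM with dTAG-13, 6.76 and 6.41 CPM with GSI, 5.91 and 5.71 CPM with the combination, and 6.93 and 7.45 CPM with DMSO. All 6 treated libraries were below both DMSO libraries, and all 4 with dTAG-13 were below all 4 without. Singly, a treated group lay below both DMSO libraries for 17.6% of all genes tested (dTAG-13), 20.9% (GSI) and 20.5% (combination). These orders share the DMSO libraries, and the share of genes showing all of them was not counted. The dTAG-13 effect averaged over both backgrounds was -0.23 on the log2 scale (SE 0.10, edgeR adjusted p = 0.790), which did not pass the test. Against DMSO the log2 fold change was -0.28 for dTAG-13 (SE 0.14), -0.13 for GSI (SE 0.14) and -0.31 for the combination (SE 0.14). EGR1 and NR4A1 were the 2 members whose 4 dTAG-13 libraries all lay below the 4 others, as did 1.55% of all genes tested.

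CD69 (ENSG00000110848), the activation marker and C-type lectin, was higher with GSI than with DMSO, and lower with dTAG-13 when averaged over both backgrounds. It was measured at 2.86 and 2.52 CPM with dTAG-13, 7.51 and 7.48 CPM with GSI, 3.68 and 4.03 CPM with the combination, and 4.50 and 3.45 CPM with DMSO. The GSI libraries were above all others and the dTAG-13 libraries below all others, while the combination and DMSO overlapped. Mean levels were 2.69 ± 0.240 CPM with dTAG-13, 7.49 ± 0.0233 CPM with GSI, 3.85 ± 0.248 CPM with the combination and 3.98 ± 0.745 CPM with DMSO (SD, n = 2 each).

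CD69 was the member called for GSI against DMSO, with a log2 fold change of 0.93 (SE 0.18, edgeR adjusted p = 0.0181), a fold of 1.90. In that comparison 1.74% of all genes tested were called, and 0.876% were called higher. The call was lost without any 1 of the 4 libraries, with adjusted p of 0.0666 and 0.327 without DMSO replicates 1 and 2, and 0.0825 and 0.0583 without GSI replicates 1 and 2. The log2 fold change then lay between 0.73 and 1.116. In the authors' deposited table for GSI against DMSO, CD69 had a log2 fold change of 0.91 with an adjusted p of 0.0888.

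The CD69 levels of libraries with and without GSI overlapped, since those of the combination and DMSO did. Averaged over both backgrounds, the GSI effect on CD69 was 0.72 on the log2 scale (SE 0.13, edgeR adjusted p = 0.00650), where 3.38% of all genes tested were called higher. Without DMSO replicate 2 it missed the threshold narrowly (log2 fold change 0.63, adjusted p = 0.050005). The averaged dTAG-13 effect on CD69 was -0.76 (SE 0.13, edgeR adjusted p = 0.0290), a fold of 0.592, and the libraries with and without dTAG-13 overlapped, with the combination near DMSO. It was lost without any one library but combination replicate 2 (adjusted p 0.0615 to 0.193), without which it was 0.0417.

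The pairwise dTAG-13 comparisons of CD69 did not pass the test. For dTAG-13 against DMSO the log2 fold change was -0.55 (SE 0.20, edgeR adjusted p = 0.9996), and for the combination against GSI it was -0.96 (SE 0.17, edgeR adjusted p = 0.0999). The combination against GSI passed with no filter on low counts (adjusted p = 0.00129). For the combination against dTAG-13 the value was 0.52 (SE 0.20, edgeR adjusted p = 0.285), and for the combination against DMSO -0.03 (SE 0.19). The interaction was -0.41 (SE 0.26, unadjusted p = 0.149, edgeR quasi-likelihood test), so a difference in the GSI effect between backgrounds was not detected.

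Summed B lineage markers were higher with GSI and with the combination, whereas CD69 lay above the DMSO libraries with GSI but not with the combination. The sums were not tested. The sum of the 10 markers, 4 of them tested and 1 at 0 in all libraries, was 102.2 to 123 CPM with GSI and 106 to 113 CPM with the combination, against 78.5 to 80.3 CPM with dTAG-13 and 72.1 to 84.4 CPM with DMSO. MS4A1, a defining marker among them, stayed near 0, with 0 to 4 reads per library. NK markers summed to 17.3 to 21.3 CPM, erythroid and megakaryocytic ones to 0.507 to 1.44 CPM, and epithelial and stromal ones to 1.82 to 4.10 CPM.

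**Figure D2:**
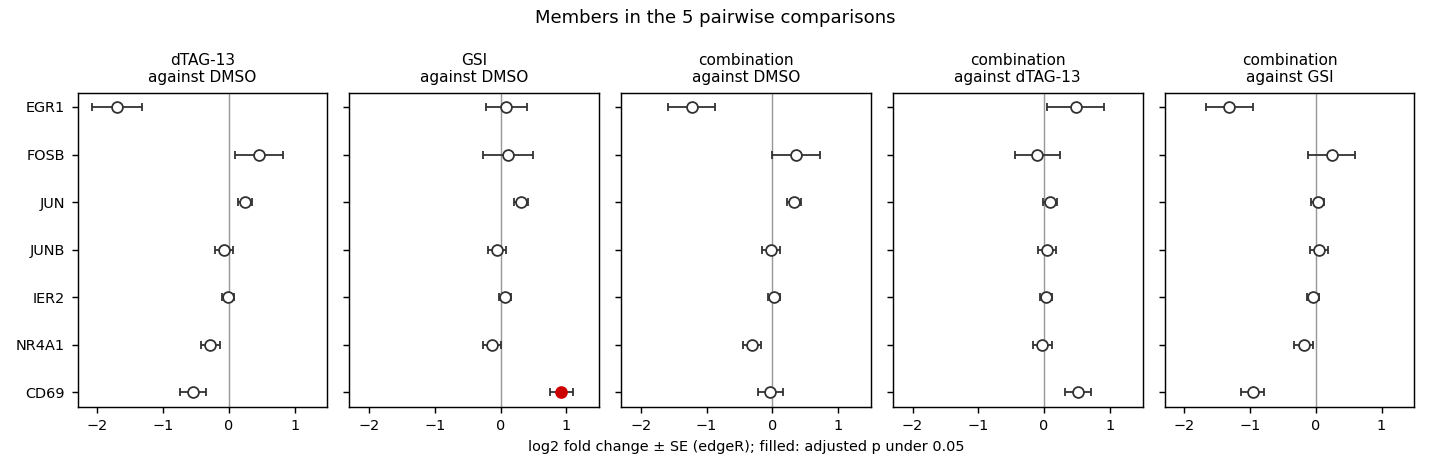
Log2 fold change with its SE from edgeR for the 7 genes tested, in 5 pairwise comparisons; the filled red point has an adjusted p under 0.05. CD69 for GSI against DMSO (0.93) is the filled point, and EGR1 lies furthest to the left in the 3 comparisons that add dTAG-13.

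Over the 8 comparisons, few members were called. None of the 7 was called by edgeR for dTAG-13 against DMSO (0.0192% of all genes tested were called), for the combination against DMSO (1.31%), for the combination against dTAG-13 (1.21%), for the combination against GSI (0.0575%) or for the interaction (0%). An unadjusted p under 0.05 was found for 3 members in dTAG-13 against DMSO (3.84% of all genes), 2 in the combination against DMSO (12.4%), 1 in the combination against dTAG-13 (2037 genes, 13%), 2 in the combination against GSI (4.14%) and 0 in the interaction (1.66%). The DESeq2 Wald test also called 0 members in these 5. The median log2 fold change of the members was -0.07 for dTAG-13 against DMSO, beside 0.01 for all genes, and 0.09 for GSI against DMSO, beside 0.01. In the GSI libraries 2 of the 7 members, CD69 and JUN, lay above both DMSO libraries, beside 22.6% of all genes tested. Another 1, NR4A1, lay below both, beside 20.9%, so these GSI counts are near the background. In the dTAG-13 libraries 2 members, FOSB and JUN, lay above both DMSO libraries, beside 17.7% of all genes tested. There 3, EGR1, NR4A1 and CD69, lay below both, beside 17.6%. With the combination 1, JUN, lay above, beside 21.6%, and 2, EGR1 and NR4A1, lay below, beside 20.5%. All 3 tallies share the DMSO libraries, and whether they differ from the background was not tested.

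**Figure D3:**
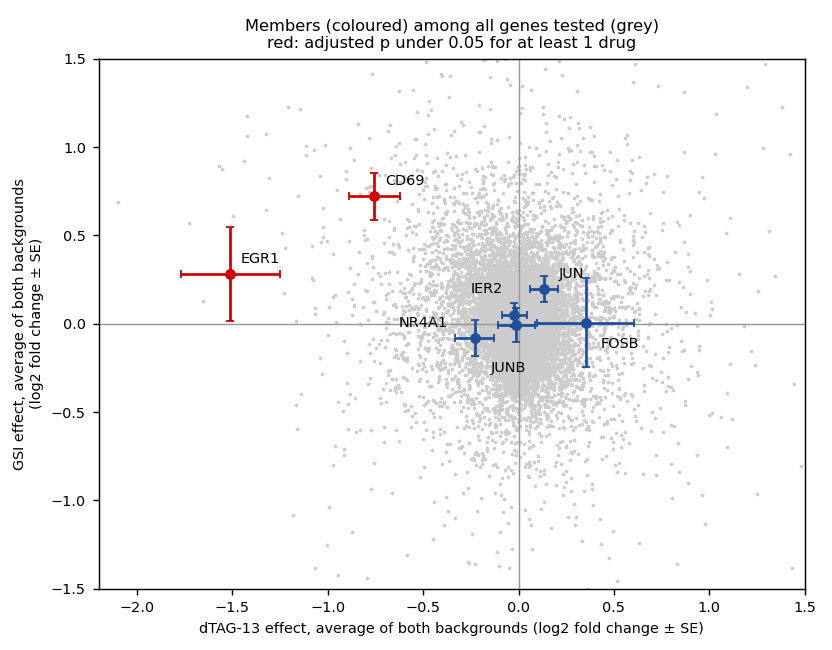
Effect of dTAG-13 (horizontal) against that of GSI (vertical), each averaged over both backgrounds, as log2 fold changes with SE for the 7 genes over all genes tested in grey; 56 genes lie outside the axes, and red marks an adjusted p under 0.05 for at least 1 drug. CD69 lies up and to the left (-0.76 and 0.72), EGR1 far to the left (-1.51), and JUNB and IER2 at the centre.

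The genes most like CD69 over the 8 libraries, by Pearson correlation of log2 CPM among 10165 genes averaging 5 CPM or more, were TPM4 (0.981), TESPA1 (0.977), CAMK1D (0.975) and LAPTM5 (0.969). Those most like EGR1 were SPRED2 (0.958), an inhibitor of the RAS and ERK path, POU2AF1 (0.955), MCL1 (0.940) and CD5 (0.923). For JUN they were IDI1 (0.959), TLE1 (0.958), TAGAP (0.954) and RNPEP (0.949), and for JUNB DPM3 (0.983), ITM2C (0.981), MSRB1 (0.963) and C15orf40 (0.962). The 8 points share 4 treatments, so these are descriptions of likeness with no test. The genes most like JUNB had averaged log2 fold changes of only -0.04 to 0.02 for either drug. JUNB itself differed most between the 2 GSI replicates, 28.7 and 40.0 CPM. Its likenesses thus need not follow the treatments, and what they follow was not tested.

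Among 21 other EGR, AP-1, NR4A, IER and KLF genes, 16 were tested, and JUND and KLF6 were higher with GSI averaged over both backgrounds, where 6.94% of all genes tested were called in either direction. JUND, the constitutive JUN relative, had 68.7 and 79.5 CPM with GSI, 77.6 and 78.0 CPM with the combination, 59.9 and 61.4 CPM with dTAG-13, and 60.7 and 54.1 CPM with DMSO. Its averaged GSI log2 fold change was 0.36 (SE 0.07, edgeR adjusted p = 0.00683), a call lost without DMSO replicate 2. JUND was also higher with the combination than with DMSO (log2 fold change 0.44, SE 0.10, edgeR adjusted p = 0.0464), a call lost without any 1 of the 4 libraries (up to 0.531). KLF6, a zinc finger factor induced early by many stimuli, had a log2 fold change of 0.25 (SE 0.07, edgeR adjusted p = 0.0468) and lost its call without any one library but GSI replicate 2 (up to 0.213) and in the DESeq2 Wald test. That test called FOSL2, a FOS relative named here after its values were seen, which edgeR did not call (averaged GSI log2 fold change -0.38, SE 0.11, edgeR adjusted p = 0.0614). ATF4 and MAFG, the other abundant members, had averaged GSI values of -0.15 (SE 0.08) and 0.08 (SE 0.06). edgeR called none of the 16 for dTAG-13 averaged over both backgrounds, with 4 at an unadjusted p under 0.05 and 0 called by DESeq2, and the list's median there was -0.04, beside 0.00 for all genes.

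Of 29 upstream factors and kinases 28 were tested, and RASGRP1, the exchange factor that loads RAS in T cells, was higher with GSI. RASGRP1 had 229 and 219 CPM with GSI, 228 and 224 CPM with the combination, 125 and 120 CPM with dTAG-13, and 116 and 120 CPM with DMSO. There was little spread within the libraries with GSI or within those without. The log2 fold change was 0.92 for GSI against DMSO (SE 0.08, edgeR adjusted p = 4.85e-05) and 0.88 for the combination against dTAG-13 (SE 0.08, edgeR adjusted p = 6.72e-05), comparisons that share no library, and no fit without 1 library ended either call. MEF2A, a factor that responds to ERK and calcium signals, was also higher in the GSI average (0.24, SE 0.06, edgeR adjusted p = 0.0461), a call that ended without any one of 6 libraries, all but GSI and combination replicate 2 (adjusted p up to 0.198), and in the DESeq2 Wald test. SRF and MAP2K2 had averaged GSI values of -0.09 (SE 0.06) and 0.02 (SE 0.08), and 26 of the 28 were not called. The 2 called are a share near the 6.94% of all genes tested. For dTAG-13 averaged over both backgrounds edgeR called 0 of the 28, with 0 at an unadjusted p under 0.05 and 0 called by DESeq2.

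Of 18 repressors and RNA decay factors that limit early genes, 17 were tested. With GSI averaged over both backgrounds 3 were higher (DUSP1, SOCS1, ZFP36) and 2 lower (ID1, ID3), beside 6.94% of all genes tested called in either direction and 3.38% called higher. DUSP1, the phosphatase that switches off ERK, JNK and p38, had 17.4 and 19.0 CPM with GSI, 19.2 and 19.0 CPM with the combination, 11.7 and 13.7 CPM with dTAG-13, and 11.3 and 13.5 CPM with DMSO. Its averaged GSI log2 fold change was 0.57 (SE 0.09, edgeR adjusted p = 0.00263), and no fit without 1 library ended the call. ZFP36, which destabilizes AU-rich RNAs such as those of early genes, had an averaged GSI value of 0.31 (SE 0.07, edgeR adjusted p = 0.0166), lost without any one of 5 libraries, either DMSO or dTAG-13 replicate or combination replicate 1 (up to 0.109). SOCS1, an inhibitor of cytokine signalling, had 0.37 (SE 0.09, edgeR adjusted p = 0.0322), lost without either dTAG-13 replicate, DMSO or GSI replicate 2, or combination replicate 1 (up to 0.181).

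ID1 and ID3 encode inhibitors of E proteins, the partners of TAL1. ID1 had 3.38 and 3.91 CPM with GSI, 2.93 and 4.22 CPM with the combination, 15.8 and 18.6 CPM with dTAG-13, and 13.2 and 14.9 CPM with DMSO. Its averaged GSI log2 fold change was -2.11 (SE 0.13, edgeR adjusted p = 1.04e-06). ID3, also a target of EGR factors, had an averaged value of -0.58 (SE 0.09, edgeR adjusted p = 0.00181). No fit without 1 library ended either averaged call. TNFAIP3 and ZFP36L2, abundant members of the same list, had averaged GSI values of 0.28 (SE 0.08, edgeR adjusted p = 0.0525) and 0.19 (SE 0.08, edgeR adjusted p = 0.210). DESeq2 called TNFAIP3 in that comparison. For dTAG-13 averaged over both backgrounds edgeR called 0 of the 17, with 5 at an unadjusted p under 0.05, while DESeq2 called 1, ID3.

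**Figure D4:**
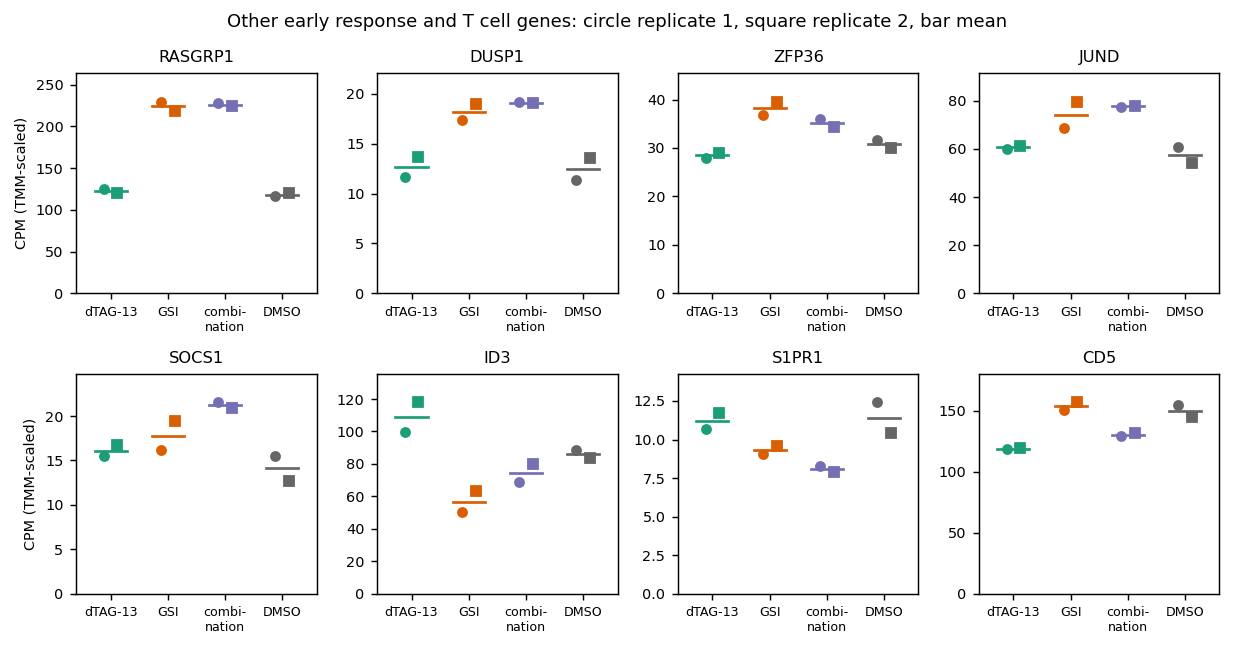
Level of 8 genes from the other lists in every library, in TMM-scaled CPM on a linear axis that starts at 0; circles are replicate 1, squares replicate 2 and bars the mean of both. RASGRP1, DUSP1, ZFP36 and JUND have higher means with GSI and the combination than with dTAG-13 and DMSO. CD5 is lower in the dTAG-13 and combination libraries.

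Of 12 genes reported as EGR2 or EGR3 targets in T cells 10 were tested, among them ID3 and SOCS1 named above. DGKZ and DGKA, kinases that remove the diacylglycerol on which RASGRP1 depends, moved in opposite directions with GSI averaged over both backgrounds, where 4 of the 10 were called, beside 6.94% of all genes tested. DGKZ had 153 and 167 CPM with GSI, 154 and 155 CPM with the combination, 192 and 189 CPM with dTAG-13, and 202 and 206 CPM with DMSO. Its averaged log2 fold change was -0.33 (SE 0.06, edgeR adjusted p = 0.00407), called in every fit without 1 library. DGKA had 0.28 (SE 0.06, edgeR adjusted p = 0.0105), a call that ended without either dTAG-13 replicate or DMSO replicate 2 (up to 0.0982). With dTAG-13 averaged over both backgrounds edgeR called 0 of the 10, with 5 at an unadjusted p under 0.05, and DESeq2 called ID3 alone.

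T cell activation genes were mostly silent, with 9 of 21 tested. In the GSI average TNFRSF4, CD40LG, CD28 and TFRC were lower and CD38 higher, 5 of the 9 tested beside 6.94% of all genes tested. TNFRSF4, the costimulatory receptor OX40, had 1.36 and 0.965 CPM with GSI, 1.63 and 1.77 CPM with the combination, 16.9 and 22.0 CPM with dTAG-13, and 16.6 and 15.6 CPM with DMSO, a log2 fold change of -3.64 (SE 0.14, edgeR adjusted p = 2.67e-08). CD38, an ectoenzyme of activated T cells, had 33.1 and 29.4 CPM with GSI, 31.9 and 19.7 CPM with the combination, 17.6 and 15.0 CPM with dTAG-13, and 19.6 and 17.4 CPM with DMSO. Its averaged GSI log2 fold change was 0.71 (SE 0.13, edgeR adjusted p = 0.00698), lost without DMSO replicate 2 (adjusted p = 0.0615). CD28, the main costimulatory receptor (-0.24, SE 0.06, edgeR adjusted p = 0.0301), lost its call without any one library but GSI replicate 1 and combination replicate 2 (up to 0.148). TFRC, the transferrin receptor (-0.29, SE 0.07, edgeR adjusted p = 0.0279), lost it without either DMSO or dTAG-13 replicate or GSI replicate 2 (up to 0.161).

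CD40LG, the ligand of CD40, and CD5, a brake on receptor signalling, were lower with dTAG-13 averaged over both backgrounds, 2 of the 9 tested beside 0.499% of all genes tested. CD40LG is also counted among the TAL1 targets above. Both lists were chosen with earlier results of these data known, so this share is no independent result. CD40LG had 48.5 and 52.5 CPM with dTAG-13, 32.5 and 35.5 CPM with the combination, 68.9 and 67.8 CPM with GSI, and 88.8 and 84.3 CPM with DMSO, and its dTAG-13 average was -0.89 (SE 0.06, edgeR adjusted p = 5.72e-05). Its GSI average was -0.45 (SE 0.06, edgeR adjusted p = 0.000942). CD5 had 118 and 120 CPM with dTAG-13, 129 and 132 CPM with the combination, 150.5 and 157 CPM with GSI, and 155 and 145 CPM with DMSO. Its averaged value was -0.29 (SE 0.05, edgeR adjusted p = 0.0402), a call lost without any 1 of the 8 libraries (up to 0.357).

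All 8 genes of CD69's partner and egress list were tested. In the GSI average, CCR7, a chemokine receptor for lymph node homing, was higher and S1PR1 and ITGAE were lower, with 4 of the 8 called, beside 6.94% of all genes tested. For dTAG-13 averaged over both backgrounds edgeR called 0 of the 8, with 3 at an unadjusted p under 0.05, and DESeq2 called 1. CCR7 had 7.65 and 7.48 CPM with GSI, 5.63 and 5.75 CPM with the combination, 3.96 and 4.43 CPM with dTAG-13, and 5.14 and 4.95 CPM with DMSO, a log2 fold change of 0.51 (SE 0.11, edgeR adjusted p = 0.0138) that lost its call without either replicate 1 of DMSO or dTAG-13 or DMSO replicate 2 (up to 0.0820). S1PR1, the receptor that CD69 binds, had 9.06 and 9.55 CPM with GSI, 8.29 and 7.91 CPM with the combination, 10.7 and 11.7 CPM with dTAG-13, and 12.4 and 10.4 CPM with DMSO. Its averaged GSI value was -0.38 (SE 0.10, edgeR adjusted p = 0.0341), lost without any one library but GSI replicate 2 (up to 0.157). ITGAE, the integrin chain CD103, had -0.39 (SE 0.09, edgeR adjusted p = 0.0259), lost without any one of 5 libraries, either DMSO replicate, dTAG-13 replicate 2, GSI replicate 1 or combination replicate 1 (up to 0.132). SLC7A5 and SLC3A2, the amino acid transporter pair that CD69 associates with, had averaged GSI values of -0.12 (SE 0.06) and -0.16 (SE 0.07).

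Of 12 other C-type lectin genes of the natural killer complex only CLEC2B, CLEC2D and CLEC12A had enough counts to test, and edgeR called none in any comparison, nor did DESeq2, with 0 to 2 at an unadjusted p under 0.05. For GSI averaged over both backgrounds their log2 fold changes were -0.01 (SE 0.11), 0.23 (SE 0.17) and 0.49 (SE 0.21), beside 0.72 for CD69. Heat shock and handling genes, which early genes can accompany when cells are disturbed at harvest, were called in none of the 8 comparisons by edgeR or DESeq2 (12 of 13 tested), with 3 at an unadjusted p under 0.05 in the GSI average and 0 in the others. Their median log2 fold change was 0.01 for dTAG-13 and -0.13 for GSI, each averaged over both backgrounds, beside 0.00 and 0.01 for all genes.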

How the data were processed

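The genome build hg19 and the tools STAR 2.5.2a, featureCounts and DESeq2 1.12.4 are named in the submitters' processing notes. The authors deposited whole-number counts per gene and library. They also deposited 3 tables of a treatment against DMSO, whose mean normalised signal, log2 fold change, score and p-value per gene are the authors' own. How featureCounts treated strand, and its gene models, are not stated by any source used here, and the library kit was stranded per the labels' protocols.

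Counts were filtered with filterByExpr, which kept at least 99.9% of each library's counts, scaled with TMM and fitted in 1 model of the 4 groups with edgeR 4.0.16 in R 4.3.3 (quasi-likelihood F-test, 2-sided, robust, 4 residual degrees of freedom, biological coefficient of variation 0.0804). Benjamini-Hochberg adjustment ran over every gene tested, with calls at 0.05. There were 8 comparisons: 5 between pairs of groups, the interaction, and each drug averaged over both backgrounds, as 4 libraries with it against 4 without. CPM are TMM-scaled, and levels per kilobase used the union of GENCODE v29 exons. Between replicates, counts differed by 4.45 to 13.4 times the sampling variance, so none was a duplicate.

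The members and lists were chosen with earlier results of these data known. Named are all members, of each other list the genes called plus the 3 most abundant, and the 4 genes most like CD69, EGR1, JUN and JUNB; a few genes that this rule selects are counted but not reported here. Alternatives were DESeq2 size factors, no filter on low counts, the DESeq2 1.42.0 Wald test, a replicate block, the compared libraries alone, and leaving out each library. The fitting scripts were first tested on simulated counts.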

Additional observations from a re-analysis of the deposited data

How the results depend on the processing

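With no filter on low counts, edgeR called 51 genes for dTAG-13 against DMSO (3 in the analysis reported), 660 for GSI against DMSO (272), 532 for the combination against DMSO (205), 563 for the combination against dTAG-13 (189), 59 for the combination against GSI (9), 1815 for the GSI average (1086) and 165 for the dTAG-13 average (78). Among the members it then called EGR1 in dTAG-13 and in the combination against DMSO, and CD69 in the combination against GSI, 1 in each. The DESeq2 Wald test called 23 genes for dTAG-13 against DMSO and 23 for the combination against GSI. A fit of the compared libraries alone called 71, with 1 member, EGR1, for dTAG-13 against DMSO, 96 for the combination against dTAG-13 and 3 for the combination against GSI. The cause of these shifts was not tested.

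Deviations of same-numbered libraries correlated across genes at 0.226 to 0.311 among the 3 treated groups and at -0.166 to -0.0594 between these and DMSO. The labels give the numbers no meaning and there are 2 per group, so the libraries were not treated as paired. With the number as a block, calls were 23 for dTAG-13 against DMSO, 559 for GSI against DMSO, 413 for the combination against DMSO, 476 for the combination against dTAG-13, 34 for the combination against GSI (with CD69, 1 member, at an adjusted p of 0.034), 1822 for the GSI average and 135 for the dTAG-13 average. With the DMSO numbers crossed, a setting chosen after seeing the data, GSI against DMSO had 1581 calls.

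Leaving out 1 library at a time gave 0 to 2 calls for dTAG-13 against DMSO, 32 to 232 for GSI against DMSO, 38 to 258 for the combination against DMSO, 43 to 264 for the combination against dTAG-13, 6 to 7 for the combination against GSI, 0 to 1 for the interaction, 342 to 1524 for the GSI average and 14 to 78 for the dTAG-13 average. Members called then numbered 0 for GSI against DMSO, 0 to 1 for the GSI average and 0 to 2 for the dTAG-13 average. Uncalled members near 0 changed sign: FOSB in the GSI average was -0.00138 with the DESeq2 Wald test and -0.00827 with the replicate block. Without 1 library, the log2 fold change of JUNB ran from -0.15 to 0.016 in dTAG-13 against DMSO, -0.32 to 0.16 in GSI against DMSO, -0.10 to 0.064 in the combination against DMSO, -0.0074 to 0.10 in the combination against dTAG-13, -0.18 to 0.30 in the combination against GSI, -0.11 to 0.37 in the interaction, -0.14 to 0.10 in the GSI average and -0.12 to 0.12 in the dTAG-13 average. That of IER2 ran from -0.052 to 0.034 in dTAG-13 against DMSO, -0.017 to 0.069 in the combination against DMSO, -0.0088 to 0.077 in the combination against dTAG-13, -0.095 to 0.024 in the combination against GSI, -0.086 to 0.033 in the interaction and -0.052 to 0.0079 in the dTAG-13 average. That of EGR1 ran from -0.33 to 0.42 in GSI against DMSO. That of FOSB ran from -0.23 to 0.38 in GSI against DMSO, -0.33 to 0.094 in the combination against dTAG-13, -0.023 to 0.58 in the combination against GSI, -0.48 to 0.12 in the interaction and -0.16 to 0.14 in the GSI average. That of CD69 ran from -0.23 to 0.16 in the combination against DMSO. That of NR4A1 ran from -0.077 to 0.028 in the combination against dTAG-13.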
